A study of Homo sapiens with 12 samples.

Results

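The genes described here are 10 members of the interleukin-1 (IL-1) system: the ligands IL1A, IL1B, IL33 and the antagonist IL1RN, the receptor chains IL1R1, IL1RAP and IL1RL1, and the kinases IRAK1, IRAK2 and IRAK3. They were taken by symbol from the 48162 Ensembl gene IDs of each RNA-seq library, and all 10 had an ID. IL1A and IL1B mRNA was nearly absent from Control fibroblasts, was 857-fold and 11165-fold higher with oncogenic HRAS, and was 4.74-fold and 9.01-fold lower once DOT1L was knocked down in those cells. The kinase gene IRAK2 was 8.20-fold higher with HRAS and 4.58-fold lower with the knockdown. The knockdown cells also held 1.80-fold less HRAS mRNA than RAS cells, and the part of that difference in these falls was not tested. Whether the RAS libraries carried a hairpin for comparison is unclear. DOT1L overexpression without HRAS came with 133-fold higher IL1B, 4.04-fold higher IL1A and IRAK2 at 1.24-fold Control. These IL1A and IRAK2 differences lost significance when certain single libraries were left out, and Control held only 18 IL1A and 15 IL1B counts.

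The cells were IMR90, a long-established human lung fibroblast line, and fell into 4 groups with 3 libraries each. RAS/shDOT1L cells carried pBABE-HRASG12V, a retroviral vector for mutant HRAS, together with the pLKO.1 hairpin shDOT1L against the histone H3K79 methyltransferase DOT1L. RAS cells carried pBABE-HRASG12V, DOT1L OE cells carried MSCB-hDot1lwt for wild-type human DOT1L, and Control cells carried the empty pBABE vector. All groups were grown in 2% O2 and selected for 4 days, RAS/shDOT1L, RAS and Control with puromycin at 3 µg/mL and DOT1L OE with blasticidin at 1 µg/mL. The vector and the drug therefore differed between DOT1L OE and Control and cannot be told apart from DOT1L itself, the labels give the same hairpin for all 3 RAS/shDOT1L libraries, and they name no control hairpin in the RAS group, although a legend of the study speaks of an shGFP control for such cells. The study asked whether DOT1L governs the senescence-associated secretory phenotype (SASP), the secreted inflammatory factors of senescent cells, and IL1A stands at its centre.

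IL-1α (IL1A) and IL-1β (IL1B) are the agonists of the IL-1 receptor: either one binds IL1R1, which then recruits the accessory chain IL1RAP. The receptor pair gathers MYD88 and the kinases IRAK4, IRAK1 and IRAK2, and TRAF6 relays the signal to NF-κB, which switches on cytokine and chemokine genes, IL1A and IL1B among them. IL1RN occupies IL1R1 without signalling, IRAK3 (IRAK-M) dampens the kinase complex, and IL33 signals through IL1RL1 (ST2) and IL1RAP. In senescent fibroblasts, IL-1α on the cell surface is known as an upstream driver of the SASP.

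Library totals ran from 16128055 to 19503457 counts. The labels were checked with the targeted genes: DOT1L stood at 10.2 to 11.3 CPM (counts scaled to library size with TMM factors) in RAS/shDOT1L, 82.0 to 87.6 in RAS, 194 to 211 in DOT1L OE and 29.1 to 33.6 in Control. HRAS stood at 259.6 to 285 CPM in RAS/shDOT1L and 490.3 to 507 in RAS, so the knockdown cells also held 1.80-fold less HRAS mRNA (log2 change -0.85 ± 0.05 SE). The share of counts on mitochondrial genes was 3.64% to 3.87% in RAS and 2.12% to 2.54% in the other 9 libraries. Neither the HRAS difference nor the mitochondrial share was tested for its part in the results below. All 12 of the fibroblast markers listed had counts in every group, with summed levels of 19508 to 20499 CPM in RAS/shDOT1L, 20259 to 20761 in RAS, 20562 to 21711 in DOT1L OE and 27443 to 27874 in Control.

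Of the 10 members, 8 passed the filter on low counts in RAS against Control, 8 in RAS/shDOT1L against RAS, 9 in DOT1L OE against Control and 7 in RAS/shDOT1L against Control. A gene was called changed at an adjusted p under 0.05 in edgeR's quasi-likelihood test with Benjamini-Hochberg adjustment over all genes tested. RAS against Control called 7 members higher and 1 lower, where 64% of all 13554 genes tested were called (31.9% higher, 32% lower). RAS/shDOT1L against RAS called all 8 tested members lower, where 52.7% of 13398 genes were called (26.3% higher, 26.4% lower). DOT1L OE against Control called 8 higher and 1 lower, against 59.9% of 13660 genes called (29.9% in each direction), and RAS/shDOT1L against Control called 5 higher and 2 lower, against 55.5% of 13519 (27.9% higher, 27.6% lower). With so many genes called in every comparison, the sizes of change carry more than the counts. When counts were scaled by library size alone, the median log2 change of all genes was -0.24 in RAS against Control (-0.04 with TMM) and the calls split into 3256 higher and 5573 lower (4327 and 4343 with TMM). That scaling gave, in RAS/shDOT1L against Control, 3037 higher and 4561 lower (3775 and 3726 with TMM). A second test, for a change of over 1.5-fold, passed 6 members in RAS against Control, all higher (26.9% of all genes, 13.4% higher and 13.6% lower), and 6 in RAS/shDOT1L against RAS, all lower (17%, 8.34% higher and 8.62% lower). It passed 6 higher and 1 lower in DOT1L OE against Control (20.8%, 11.2% higher and 9.58% lower) and 3 higher and 1 lower in RAS/shDOT1L against Control (19.1%, 9.44% higher and 9.68% lower). The libraries of the groups compared did not overlap for 8 of the 10 members in each comparison, counting members tested or not. In RAS/shDOT1L against Control these 8 included IL1RN, which was not tested there. Of the genes tested only, 67.8% did not overlap in RAS against Control and 58.7% in RAS/shDOT1L against RAS. The shares were 64% in DOT1L OE against Control and 61.9% in RAS/shDOT1L against Control. Members that are silent in one group pass the filter only through the other, so these counts are descriptions. The 3 libraries of a group may be technical replicates of one experiment, so p-values measure only the spread between these libraries. In bulk RNA, fewer expressing cells and less mRNA per cell cannot be told apart.

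IL1A (ENSG00000115008) lies on chromosome 2 of GRCh38 at 112773925 to 112784493 on the minus strand, and IL1B (ENSG00000125538) lies near it at 112829751 to 112836816, also on the minus strand. IRAK2 (ENSG00000134070) lies on chromosome 3 at 10164919 to 10243745 on the plus strand. The bases just upstream of these 3 genes are shown because the results turn on these agonists and this kinase, all highest in RAS. They are RefSeq promoter windows on GRCh38.p14, given in the direction of transcription, trimmed where an exon of the gene begins. Capitals mark matches to either of the motifs found in them: TGANTCA, bound by AP-1 factors, and TTNNGNAA, bound by C/EBP factors, each searched on both strands.
IL1A, chr2:112784494-112784743, minus strand: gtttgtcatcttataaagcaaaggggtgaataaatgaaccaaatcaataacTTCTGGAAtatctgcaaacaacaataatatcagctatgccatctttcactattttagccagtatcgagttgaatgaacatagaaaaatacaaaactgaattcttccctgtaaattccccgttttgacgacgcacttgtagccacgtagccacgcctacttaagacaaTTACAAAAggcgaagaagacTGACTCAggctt
IL1B, chr2:112836817-112837029, minus strand: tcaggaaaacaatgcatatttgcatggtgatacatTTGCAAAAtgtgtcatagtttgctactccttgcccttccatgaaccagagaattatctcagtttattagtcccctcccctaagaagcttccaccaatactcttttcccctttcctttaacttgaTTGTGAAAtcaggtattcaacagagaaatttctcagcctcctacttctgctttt
IRAK2, chr3:10164669-10164918, plus strand: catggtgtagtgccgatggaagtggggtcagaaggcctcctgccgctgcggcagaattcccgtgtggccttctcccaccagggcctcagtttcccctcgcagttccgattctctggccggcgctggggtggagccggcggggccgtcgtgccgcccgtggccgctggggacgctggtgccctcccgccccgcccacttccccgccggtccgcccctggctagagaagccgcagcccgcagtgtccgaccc

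The search covered 1 window of 300 bases for each of the 10 members, 250 before the start site and 50 after. An NF-κB motif, GGGA then any 4 bases then CC, searched on both strands like the others, occurred in 25.6% of all 35116 promoter windows of that length, TGANTCA in 7.71% and TTNNGNAA in 36.8%. The IL1A window held TGACTCA from position -12 relative to the start site, a second TGANTCA match after the start site, and 2 TTNNGNAA matches, at -199 and -32; of the other 9 windows, only that of IRAK1 held TGANTCA. The IL1B window held 3 TTNNGNAA matches, at -215, -91 and -41, the last of them partly outside the bases shown. The IRAK2 window held none of the 3 motifs. The NF-κB motif lay in the windows of IL1R1, IL1RAP, IRAK1 and IRAK3. These are matches of letters in short windows and carry no information on binding.

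IL1A was measured at 58.2, 55.8 and 55.6 CPM in RAS/shDOT1L, 285, 278 and 249 CPM in RAS, 1.94, 0.662 and 1.28 CPM in DOT1L OE, and 0.362, 0.216 and 0.352 CPM in Control. The RAS libraries were highest, RAS/shDOT1L came next, then DOT1L OE and Control, and no neighbouring ranges overlapped. In RAS against Control the log2 change was 9.74 ± 0.12 (SE; edgeR adjusted p = 8.26e-35), the 15th largest change of all 13554 genes. In RAS/shDOT1L against RAS IL1A fell by 2.24 ± 0.07 on the log2 scale (edgeR adjusted p = 3.71e-24). In RAS/shDOT1L IL1A still stood 179-fold above Control (log2 change 7.49 ± 0.19, edgeR adjusted p = 1.09e-22). DOT1L OE against Control gave a log2 change of 2.02 ± 0.60 (edgeR adjusted p = 0.00449), from 36, 14 and 27 counts in DOT1L OE and 7, 4 and 7 counts in Control. That call rested on 1 library: without DOT1L OE replicate 1 the log2 change was 1.62 and the edgeR adjusted p 0.0753. IL1A has 38.7% GC in its exons, and genes within 2 percentage points of it had a median log2 change of -0.59 in RAS against Control. With an offset for GC content the RAS change of IL1A was 10.34.

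IL1B, the inducible agonist cut by caspase-1, was measured at 341, 304 and 327 CPM in RAS/shDOT1L, 2976, 2920.1 and 2967 CPM in RAS, 33.8, 33.4 and 40.1 CPM in DOT1L OE, and 0.362, 0 and 0.403 CPM in Control. The order of the groups was that of IL1A, with wide gaps at each step and no overlap. In RAS against Control the log2 change was 13.45 ± 0.09 (edgeR adjusted p = 5.82e-43), the 2nd largest of all genes tested. Since the 3 Control libraries held 15 IL1B counts in all, the size of that change rests on few counts, and limma-voom put it at 14.11. In RAS/shDOT1L against RAS IL1B fell by 3.17 ± 0.04 on the log2 scale (edgeR adjusted p = 6e-34), to 324 ± 18.7 CPM in RAS/shDOT1L, against 2954 ± 30.03 CPM in RAS (SD, n = 3 each). RAS/shDOT1L still stood 1228-fold above Control (log2 change 10.26 ± 0.15, edgeR adjusted p = 3.36e-28), where limma-voom gave 10.92. DOT1L OE against Control gave 7.06 ± 0.25 (edgeR adjusted p = 1.26e-21), the 12th largest of 13660, and 7.72 by limma-voom. Per kilobase of exon, IL1B was the most abundant member in RAS at 982 CPM per kb, with IL1A at 134 CPM per kb.

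Monocytes and macrophages are the usual source of IL-1β, so their markers were read beside IL1B. Of 12 such markers, 7 were without a count in RAS/shDOT1L, 6 in RAS, 5 in DOT1L OE and 7 in Control, and ITGAM, CD68 and MARCO had none in any library. Their summed level was 1.55 to 5.28 CPM in RAS/shDOT1L, 6.30 to 7.27 CPM in RAS, 2.00 to 2.18 CPM in DOT1L OE and 1.51 to 2.10 CPM in Control. In RAS against Control CSF1R, FCER1G and CD14 were called higher, with RAS levels of at most 2.58, 1.74 and 3.48 CPM. In RAS/shDOT1L against RAS FCER1G was called lower (log2 change -3.24 ± 0.85, edgeR adjusted p = 0.00177). CSF1R (-0.10) and CD14 (-0.99) were not called there. These markers were not tested for a part in the IL1B result.

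**Figure D1:**
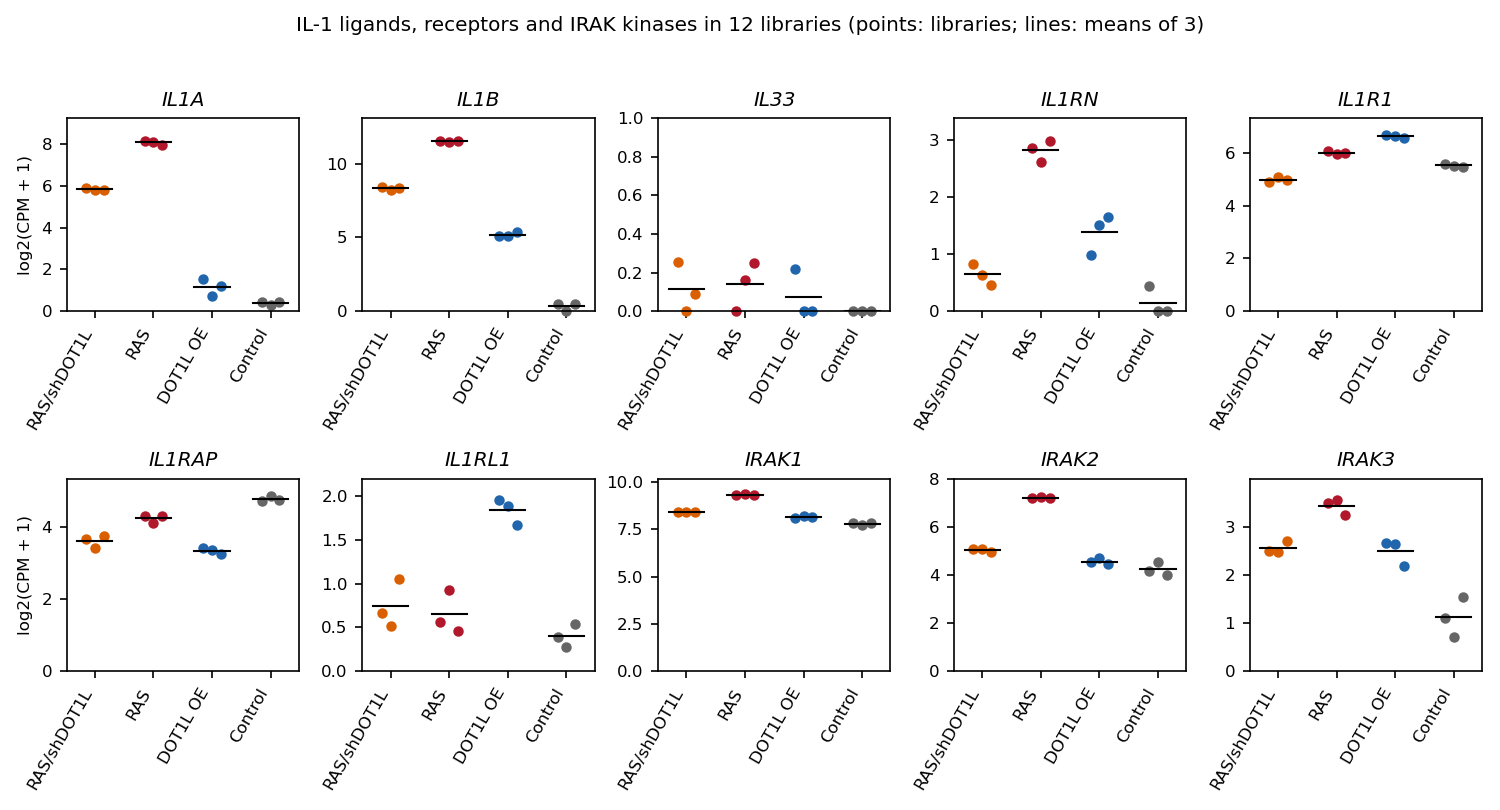
Level of each member in the 12 libraries, as log2(CPM + 1) on the vertical axis with a scale of its own in each panel, for RAS/shDOT1L, RAS, DOT1L OE and Control; points are libraries and lines are means of 3. IL1A, IL1B, IL1RN and the IRAK genes are highest in RAS, IL1R1 and IL1RL1 in DOT1L OE, and IL1RAP in Control.

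IL1RN, which encodes the receptor antagonist, stayed at low levels in every group: 0.777, 0.560 and 0.377 CPM in RAS/shDOT1L, 6.24, 5.16 and 6.89 CPM in RAS, 0.971, 1.84 and 2.13 CPM in DOT1L OE, and 0.362, 0 and 0 CPM in Control. Unlike IL1A and IL1B, it was higher in DOT1L OE than in RAS/shDOT1L, and none of the 4 ranges overlapped. IL1RN fell by 3.38 ± 0.42 on the log2 scale in RAS/shDOT1L against RAS (edgeR adjusted p = 2.93e-08), from 12, 9 and 6 counts in RAS/shDOT1L and 105, 86 and 109 counts in RAS. It was called higher in RAS against Control (log2 change 5.58 ± 0.59, edgeR adjusted p = 5.93e-10) and in DOT1L OE against Control (3.70 ± 0.75, edgeR adjusted p = 8.55e-05), with 6.58 and 4.65 by limma-voom. All 7 Control counts came from Control replicate 1. Without that library Control was at 0 and the fitted changes were 9.75 and 8.03. Against a floor of 3 counts over the remaining Control libraries, IL1RN was 78.1-fold higher in RAS and 21.1-fold higher in DOT1L OE. Both folds follow from leaving out the only Control library with IL1RN counts. They exceed the edgeR changes fitted with that library, so they are not minimum changes. IL1RN did not pass the filter in RAS/shDOT1L against Control.

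IL33, an alarmin ligand, had 3, 0 and 1 counts in RAS/shDOT1L, 0, 2 and 3 in RAS, 3, 0 and 0 in DOT1L OE, and none in Control. It passed no filter, and a difference between groups was not detectable at this depth. Its receptor chain IL1RL1 (ENSG00000115602; chromosome 2, 102311502 to 102352037, plus strand) stood at 0.583, 0.435 and 1.07 CPM in RAS/shDOT1L, 0.475, 0.900 and 0.379 CPM in RAS, 2.86, 2.70 and 2.18 CPM in DOT1L OE, and 0.310, 0.216 and 0.453 CPM in Control. Only the DOT1L OE libraries stood clear of the other 3 groups, whose ranges overlapped. IL1RL1 rose 7.66-fold in DOT1L OE against Control (log2 change 2.94 ± 0.50, edgeR adjusted p = 5.61e-06). The neighbouring receptor gene IL18R1, which shares bases and strand with IL1RL1, rose beside it (log2 change 3.26 ± 0.49, edgeR adjusted p = 9.06e-07), with 73, 69 and 64 counts in DOT1L OE and 1, 13 and 6 in Control. Mast cells, innate lymphoid cells and endothelial cells are among the known carriers of ST2. Of 8 mast cell markers 7 were without a count in DOT1L OE, and the one tested, KIT, was called lower in DOT1L OE than in Control (log2 change -0.41 ± 0.16). Of 8 T cell and innate lymphoid markers 2 were without a count in DOT1L OE and 2 were tested. GATA3, a transcription factor of T helper and innate lymphoid cells, was called higher (log2 change 3.74 ± 0.76, edgeR adjusted p = 7.59e-05), with 17, 32 and 27 counts in DOT1L OE and 2, 0 and 3 in Control, and IL7R was not called (-0.09). The summed endothelial markers were 139.8 to 153 CPM in DOT1L OE and 64.3 to 70.6 CPM in Control, most of it TEK, and CDH5 had no count in either group. Of 7 endothelial markers with an ID, 4 had a mean level under 1 CPM in DOT1L OE. The 3 tested were all called higher in DOT1L OE: KDR, the VEGF receptor, by 5.76 ± 0.35, TIE1 by 3.09 ± 0.53 and TEK by 0.95 ± 0.06 on the log2 scale. In RAS against Control, where IL1RL1 was not tested, 3 of 4 endothelial markers tested were also called higher. The part of such markers in the IL1RL1 result was not tested.

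IL1R1 (ENSG00000115594; chromosome 2, 102064544 to 102179874, plus strand), the signalling receptor, changed by less than IL1A and IL1B in every comparison. It stood at 28.9, 32.65 and 29.9 CPM in RAS/shDOT1L, 66.9, 60.3 and 63.1 CPM in RAS, 101, 98.7 and 94.1 CPM in DOT1L OE, and 47.1, 44.6 and 43.3 CPM in Control. The groups did not overlap, with DOT1L OE highest and RAS/shDOT1L lowest. IL1R1 fell 2.05-fold in RAS/shDOT1L against RAS (log2 change -1.04 ± 0.10, edgeR adjusted p = 5.83e-11), where the GC offset gave -1.34. In RAS/shDOT1L it stood 1.46-fold below Control (-0.54 ± 0.10, edgeR adjusted p = 2.86e-05). It rose 2.16-fold in DOT1L OE against Control (log2 change 1.11 ± 0.07, edgeR adjusted p = 2.16e-15) and 1.42-fold in RAS against Control (0.51 ± 0.08, edgeR adjusted p = 2.04e-06), the last short of the test for over 1.5-fold. IL1R1 exons hold 42.4% GC, the 2546 genes within 2 percentage points had a median log2 change of -0.42 in RAS against Control, and with the GC offset the change of IL1R1 there was 0.93 (edgeR adjusted p = 1.6e-11).

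IL1RAP (ENSG00000196083; chromosome 3, 190514051 to 190659750, plus strand), the accessory chain, was called lower in all 4 comparisons. It stood at 11.7, 9.76 and 12.6 CPM in RAS/shDOT1L, 18.9, 16.4 and 19.1 CPM in RAS, 9.71, 9.36 and 8.63 CPM in DOT1L OE, and 25.8, 28.4 and 26.2 CPM in Control. Control was highest in every library and DOT1L OE lowest. IL1RAP fell 2.93-fold in DOT1L OE against Control (log2 change -1.55 ± 0.12, edgeR adjusted p = 7.57e-13), 1.58-fold in RAS/shDOT1L against RAS (-0.66 ± 0.16, edgeR adjusted p = 0.000996) and 2.33-fold in RAS/shDOT1L against Control (-1.22 ± 0.14, edgeR adjusted p = 1.71e-08). In RAS against Control its log2 change of -0.55 ± 0.12 (edgeR adjusted p = 0.000252) was close to that of genes of like base composition: IL1RAP exons hold 39.4% GC, the 1996 genes within 2 percentage points had a median of -0.57, and with an offset for GC content the change was 0.01 (edgeR adjusted p = 0.95).

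Among the kinases, IRAK1 (ENSG00000184216; chromosome X, 154010506 to 154019902, minus strand) was the most abundant per length, at 151 CPM per kb in RAS, with IRAK2 at 43.0 CPM per kb. It stood at 342, 344 and 344 CPM in RAS/shDOT1L, 643, 648 and 644 CPM in RAS, 276, 290.0 and 281 CPM in DOT1L OE, and 229, 211 and 226 CPM in Control, with no overlap between groups. IRAK1 rose 2.93-fold in RAS against Control (log2 change 1.55 ± 0.04, edgeR adjusted p = 8.55e-26) and fell 1.86-fold in RAS/shDOT1L against RAS (-0.89 ± 0.04, edgeR adjusted p = 8.07e-18). IRAK1 exons hold 63.1% GC, and the 1146 genes within 2 percentage points had a median log2 change of 0.58 in RAS against Control and -0.39 in RAS/shDOT1L against RAS. With the GC offset IRAK1 changed by 0.97 and by -0.49, both still called. IRAK1 rose 1.26-fold in DOT1L OE against Control (log2 change 0.33 ± 0.05, edgeR adjusted p = 3.54e-07).

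IRAK2, the kinase that sustains late NF-κB signalling, was measured at 32.5, 32.8 and 30.3 CPM in RAS/shDOT1L, 145, 151 and 146 CPM in RAS, 22.3, 25.0 and 20.8 CPM in DOT1L OE, and 16.8, 22.5 and 15.1 CPM in Control. RAS stood far above the rest, and DOT1L OE and Control overlapped. The log2 change was 3.04 ± 0.09 in RAS against Control (edgeR adjusted p = 5.08e-24) and -2.19 ± 0.08 in RAS/shDOT1L against RAS (edgeR adjusted p = 4.49e-22). RAS/shDOT1L remained 1.78-fold above Control (log2 change 0.83 ± 0.13, edgeR adjusted p = 5.72e-06). The change of 0.31 ± 0.13 in DOT1L OE against Control passed the test by little (edgeR adjusted p = 0.0355). That call was lost without DOT1L OE replicate 2 (0.24, adjusted p = 0.173), without Control replicate 1 (0.25, 0.139) or 3 (0.19, 0.236), with the Wald test of DESeq2 (adjusted p = 0.0571) and with the GC offset (0.24, 0.101).

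IRAK3 (ENSG00000090376; chromosome 12, 66189195 to 66254622, plus strand), the inhibitory kinase, was measured at 4.66, 4.54 and 5.53 CPM in RAS/shDOT1L, 10.3, 10.7 and 8.47 CPM in RAS, 5.34, 5.20 and 3.51 CPM in DOT1L OE, and 1.14, 0.647 and 1.91 CPM in Control. RAS was highest and Control lowest, and RAS/shDOT1L and DOT1L OE overlapped. The log2 change of IRAK3 was 2.99 ± 0.30 in RAS against Control (edgeR adjusted p = 2.67e-10), -0.98 ± 0.23 in RAS/shDOT1L against RAS (edgeR adjusted p = 0.000502), 1.90 ± 0.34 in DOT1L OE against Control (edgeR adjusted p = 1.37e-05) and 2.00 ± 0.40 in RAS/shDOT1L against Control (edgeR adjusted p = 9.06e-05). The fall with the knockdown did not pass the test for over 1.5-fold (edgeR adjusted p = 0.0697). With the GC offset the log2 change of IRAK3 there was -1.26.

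**Figure D2:**
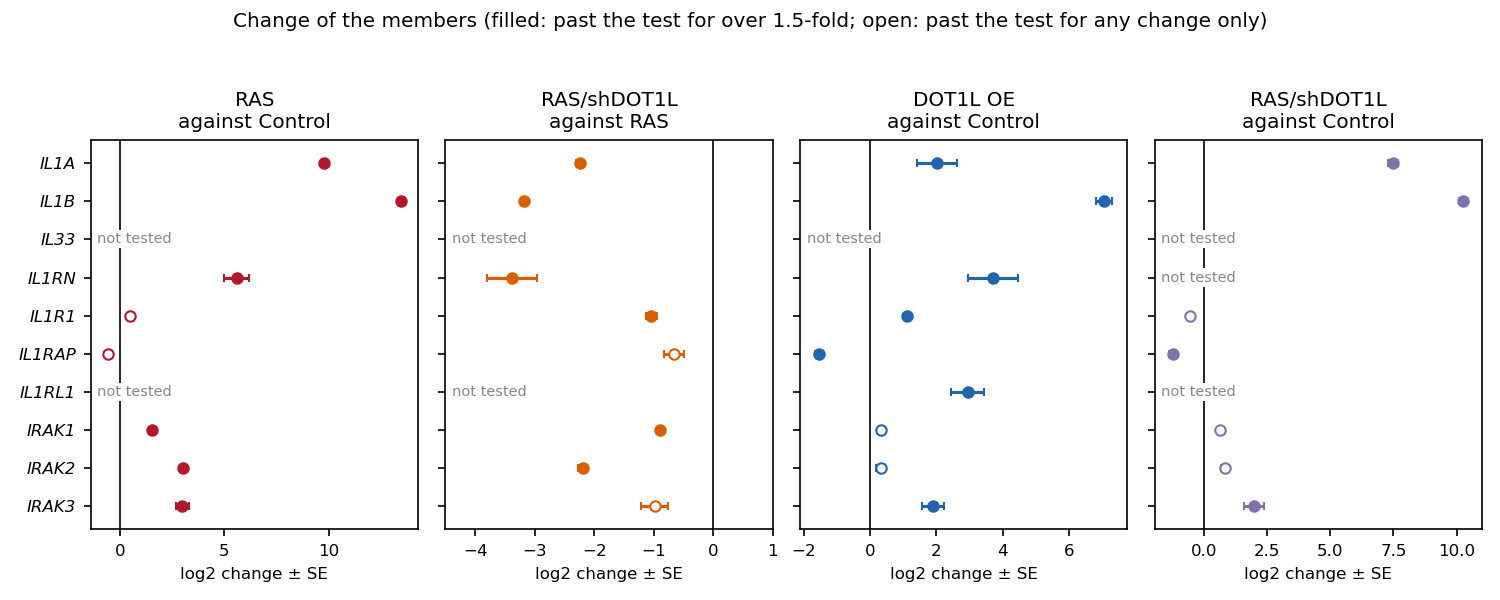
Log2 change ± SE of each tested member in RAS against Control, RAS/shDOT1L against RAS, DOT1L OE against Control and RAS/shDOT1L against Control, each panel with its own horizontal scale; filled points passed the test for over 1.5-fold and open points only the test for any change. IL1B has the largest change in both comparisons of RAS cells with Control and in DOT1L OE against Control, IL1RN and IL1B the largest falls with the knockdown, and IL1RAP lies below 0 in every panel.

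The balance of the ligands was read within each library, where depth and scaling by library size cancel but a trend with GC content does not. Counts in these ratios were not divided by exon length. The IL1B to IL1A count ratio was 5.86, 5.44 and 5.88 in RAS/shDOT1L, 10.4, 10.5 and 11.9 in RAS, and 17.2, 48.7 and 30.8 in DOT1L OE, with 0.5 added to each count. In Control, with at most 8 counts of either gene in a library, it was 1, 0.111 and 1.13. From RAS to RAS/shDOT1L, IL1B mRNA thus fell by more than IL1A mRNA. The log2 ratio averaged 2.52 ± 0.06 in RAS/shDOT1L and 3.45 ± 0.11 in RAS (SD, n = 3 each). The difference was -0.93 with no overlap (two-sided exact permutation p = 0.1, the smallest that 3 against 3 libraries allow). IL1A exons hold 38.7% GC and IL1B exons 47.9%, and with the GC offset the knockdown changes lay closer together, at -3.24 for IL1B and -2.62 for IL1A. In DOT1L OE against Control the difference was 5.88 and in RAS against Control 4.45, both with no overlap and the same exact p of 0.1, and both rest on the few Control counts. For each IL1RN count there were 493, 609 and 937 counts of the agonists in RAS/shDOT1L and 521, 616 and 464 in RAS, so the ranges overlapped (difference of log2 ratios -0.31, exact p = 0.5). In DOT1L OE there were 35.8, 18.2 and 19.2, and in Control 1.93, 9 and 31 (difference -1.51, exact p = 0.3). Over the 4 comparisons and the 2 ratios, 8 such tests were made, none of which could pass a threshold of 0.05.

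**Figure D3:**
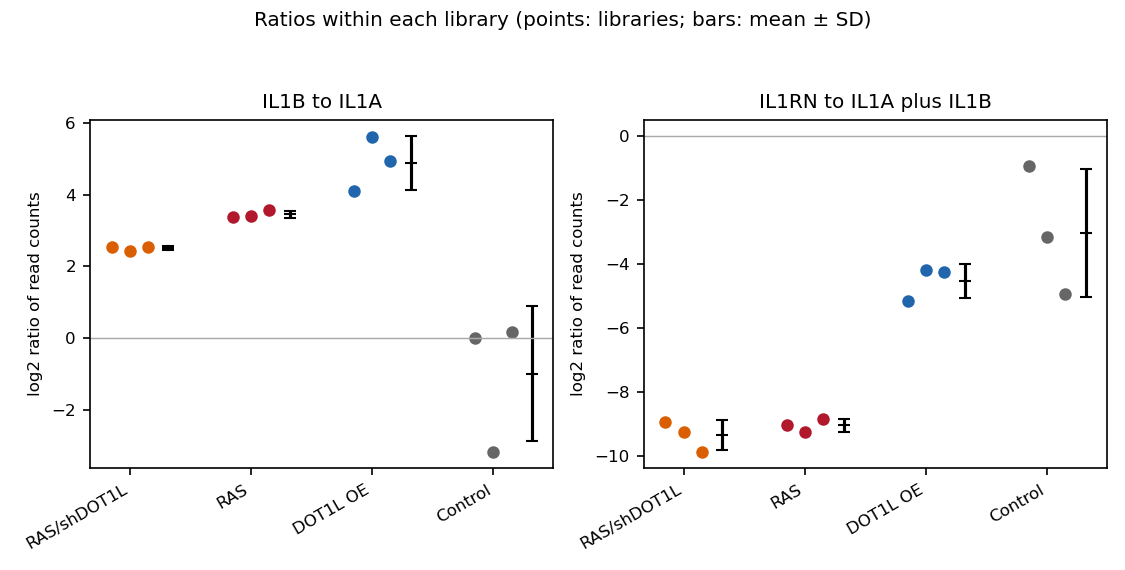
Log2 ratio of read counts within each library, IL1B to IL1A on the left and IL1RN to IL1A plus IL1B on the right, in RAS/shDOT1L, RAS, DOT1L OE and Control; points are libraries and bars the mean ± SD of 3. The IL1B to IL1A ratio is lower in all RAS/shDOT1L libraries (5.44 to 5.88 as a plain ratio) than in all RAS libraries (10.4 to 11.9), while the antagonist ratio overlaps between these groups.

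Other genes of the system came from lists. Of 7 further IL-1 family ligands only IL36RN and IL36B, which lie outside the 10 members, passed the filter, and only in the comparisons with RAS. IL36RN, the antagonist of the IL-36 receptor, had 10, 15 and 8 counts in RAS/shDOT1L, 75, 97 and 80 in RAS, 1, 0 and 0 in DOT1L OE, and none in Control. Set against 3 counts summed over the Control libraries, IL36RN was at least 98.5-fold higher in RAS than in Control and IL36B at least 32.2-fold. In RAS/shDOT1L against RAS IL36RN fell by 2.85 ± 0.43 on the log2 scale (edgeR adjusted p = 1.22e-06) and the change of IL36B was -3.06 ± 0.85 (edgeR adjusted p = 0.00282). Of 8 further receptor and binding protein genes, 3 were tested in RAS against Control and 3 in RAS/shDOT1L against RAS, and none was called in either by edgeR, the Wald test of DESeq2 or limma-voom, nor at an unadjusted edgeR p under 0.05; with the GC offset 1 was called higher and 1 lower in RAS against Control. In DOT1L OE against Control 1 of 5 was called, IL18R1, and in RAS/shDOT1L against Control 1 of 3, IL1RAPL1 (log2 change 0.97 ± 0.38, edgeR adjusted p = 0.0341). Scaled by library size alone, IL1RAPL1 was no longer called there.

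Genes of the relay between receptor and NF-κB changed in both directions, as genes in general did. Of all genes tested, 31.9% rose and 32% fell in RAS against Control, and 26.3% rose and 26.4% fell in RAS/shDOT1L against RAS. In DOT1L OE against Control 29.9% rose and 29.9% fell, and in RAS/shDOT1L against Control 27.9% rose and 27.6% fell. The same shares apply to the lists below. Of 15 adaptors, kinases and ubiquitin ligases tested, 5 rose and 4 fell in RAS against Control (median log2 change 0.02, all genes -0.04), 2 rose and 4 fell in RAS/shDOT1L against RAS (median -0.07, all genes 0.03), and 4 rose and 5 fell in DOT1L OE against Control (median 0.05, all genes 0.01). IRAK4, the kinase that starts the cascade, fell by 1.88 ± 0.13 on the log2 scale in RAS against Control (edgeR adjusted p = 4.61e-14), to 10.0 ± 1.68 CPM in RAS, against 37.1 ± 1.24 CPM in Control (SD, n = 3 each). TOLLIP, a brake on IRAK1, rose by 0.80 in RAS against Control and fell by 0.74 in RAS/shDOT1L against RAS. The kinase genes MAP3K3 and MAP3K7 (TAK1) had log2 changes of -2.42 and -1.10 in RAS/shDOT1L against RAS, and neither was called in RAS against Control (-0.15 and 0.02). Scaled by library size alone, 3 rose and 7 fell in RAS against Control and 4 rose and 3 fell in DOT1L OE against Control. PELI2, which encodes a Pellino ubiquitin ligase, rose by 2.69 ± 0.30 in DOT1L OE against Control (edgeR adjusted p = 1.99e-09), and MYD88 by 0.47. In RAS/shDOT1L against Control 4 rose and 6 fell.

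Of 9 tested genes for processing and release of IL-1, 5 rose and 3 fell in RAS against Control (all genes 31.9% and 32%). In RAS/shDOT1L against RAS 3 rose and 3 fell (all genes 26.3% and 26.4%). In DOT1L OE against Control 4 rose and 4 fell (all genes 29.9% each). In RAS/shDOT1L against Control 4 rose and 3 fell (all genes 27.9% and 27.6%). With the GC offset, 3 rose and 5 fell in RAS against Control, and 6 rose and 1 fell in RAS/shDOT1L against RAS. CASP1, the protease that matures IL-1β, was 22.7 ± 2.99 CPM in RAS/shDOT1L and 10.4 ± 3.62 CPM in RAS, and 66.9 ± 4.06 CPM in DOT1L OE and 21.0 ± 2.16 CPM in Control (SD, n = 3 each). It thus rose in RAS/shDOT1L against RAS, by 1.14 on the log2 scale (edgeR adjusted p = 4.93e-06), where both agonists fell. CASP4, a caspase of the noncanonical inflammasome, rose in all 4 comparisons, by 1.16 in RAS against Control, 0.82 in RAS/shDOT1L against RAS, 1.42 in DOT1L OE against Control and 1.97 in RAS/shDOT1L against Control. S100A13, which helps export IL-1α, rose by 0.82 in RAS against Control and its change of 0.07 with the knockdown was not called. NLRP1, an inflammasome sensor, fell by 1.01 in RAS against Control. NLRP3 had at most 0.780 CPM in any library.

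Early NF-κB target genes of IL-1 signalling moved in the direction of the agonists in RAS against Control and in RAS/shDOT1L against RAS. Of 11 tested in RAS against Control, 10 rose and 1 fell (median log2 change 8.48, all genes -0.04), and in RAS/shDOT1L against RAS 10 fell and 1 rose (median -2.79, all genes 0.03). The exception in both was CCL2, a monocyte chemokine, with log2 changes of -1.86 and 1.98. CXCL8 was 313, 318 and 338 CPM in RAS/shDOT1L, 2696, 2725 and 2644 CPM in RAS, 71.9, 68.7 and 72.1 CPM in DOT1L OE, and 4.80, 6.25 and 6.54 CPM in Control. The log2 change of CXCL1 was 10.89 ± 0.10 in RAS against Control and -3.33 ± 0.05 in RAS/shDOT1L against RAS. IL6 changed by 6.002 and -4.31 and PTGS2, the prostaglandin synthase, by 4.53 and -4.74, both falling further with the knockdown than IL1A did. CSF2, which encodes GM-CSF, changed by 8.57 and -1.82. CXCL2 had no count in Control and was at least 361-fold higher in RAS. In DOT1L OE against Control 4 of 8 tested targets rose and 2 fell (median 1.55, all genes 0.01): CXCL8, CXCL1, CXCL3 and PTGS2 rose by 3.58, 3.97, 5.06 and 2.84, ICAM1 and CCL2 fell, with changes of -1.16 and -1.69, and IL6 was not called at 0.25 (edgeR adjusted p = 0.45). In RAS/shDOT1L against Control 8 of 10 rose and none fell by edgeR, the Wald test of DESeq2 or limma-voom, nor at an unadjusted edgeR p under 0.05 (median 3.68).

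Feedback inhibitors of IL-1 and NF-κB signalling rose in RAS against Control in 7 of 10 cases and fell in 1 (median 1.02), and in RAS/shDOT1L against RAS 5 fell and 2 rose (median -0.21). The RNase gene ZC3H12A, which degrades cytokine mRNAs, changed by 4.82 and -1.14, the deubiquitinase gene TNFAIP3 (A20) by 2.68 and -1.92, and NFKBIA, the inhibitor of NF-κB, by 2.01 and -1.50. CYLD changed by -0.41 and 1.49. In RAS against Control none of the 10 fell with the GC offset and 2 fell with library size alone. In DOT1L OE against Control 3 rose and 4 fell, with TNFAIP3 at 1.73, CYLD at 1.36, NFKBIA at 0.67 and TNIP1 at -0.78; scaled by library size alone, 5 rose and 3 fell. Against Control, 7 rose in RAS/shDOT1L and none fell by edgeR, the Wald test of DESeq2 or limma-voom, nor at an unadjusted edgeR p under 0.05, and with library size alone 1 fell. The comparisons named in these 3 paragraphs share libraries (RAS in the first pair, Control in the others), so opposite signs in RAS against Control and RAS/shDOT1L against RAS are not independent of each other. The lists were counted and not tested as sets.

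**Figure D4:**
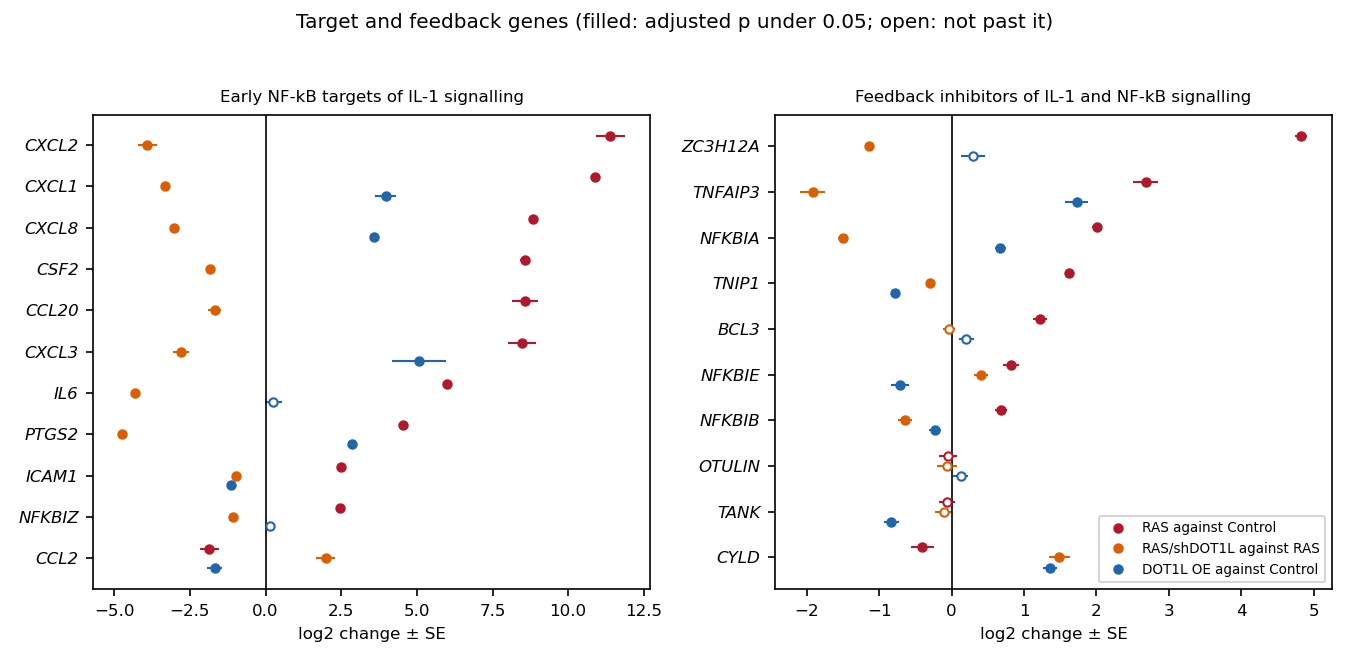
Log2 change ± SE of the early NF-κB target genes (left) and the feedback inhibitors (right) in RAS against Control, RAS/shDOT1L against RAS and DOT1L OE against Control; filled points passed an adjusted p of 0.05 in edgeR and open points did not. All early targets but CCL2 lie right of 0 in RAS against Control and left of it in RAS/shDOT1L against RAS; the first value of CXCL2 is a fit against a Control group without counts.

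Pearson correlation of log2 CPM with IL1A over the 12 libraries was taken for 14445 genes. Of those with a named symbol (not a clone or Ensembl ID), the most like IL1A were CLK3 (r = 0.997), CTSS (0.996), CCL20 (0.994), ZC3H12A (0.993) and TNFRSF1B (0.991). These values describe 4 groups of 3 libraries that share scaling, and carry no test. CLK3, a splicing kinase gene, spanned only 70.7 ± 2.29 CPM in RAS/shDOT1L, 82.8 ± 1.96 in RAS, 50.6 ± 3.08 in DOT1L OE and 45.3 ± 0.609 in Control, so it shared the order and spacing of IL1A but not the size. CTSS, which encodes cathepsin S, spanned 40.4 ± 4.45 CPM in RAS/shDOT1L, 85.0 ± 1.79 in RAS, 3.24 ± 0.573 in DOT1L OE and 1.69 ± 0.368 in Control. Among the members, IL1B (0.928) and IRAK1 (0.920) were nearest to IL1A, then IRAK2 (0.860), IRAK3 (0.819) and IL1RN (0.674), while IL1R1 (-0.23), IL1RAP (-0.15) and IL1RL1 (-0.14) were not alike.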

How the data were processed

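RNA-seq was analysed in 12 libraries of IMR90 fibroblasts, 3 in each of 4 groups taken from the labels. Poly(A) RNA was sequenced in paired ends. STAR was the aligner and GRCh38 the genome (STAR 2.6.1 in the submitters' notes, which also name DESeq2 2; the methods name other releases). The authors deposited raw counts, 1 whole number for each Ensembl gene ID. The strand setting of the deposited counts is not given in the sources used here, so overlapping genes such as IL18R1 and IL1RL1 cannot be fully told apart. Figure legends of the study call the libraries technical replicates, its methods biological ones. Counts of HRAS and DOT1L include the introduced cDNAs.

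Symbols and coordinates came from GENCODE release 44, and 93.5% of the IDs were found in the gene name table. Of 123 list entries 120 had an ID. The test of counts was that of edgeR 4.0.16, run in R 4.3.3 (filterByExpr, TMM, quasi-likelihood F test, two-sided, on the 6 libraries of each comparison; glmTreat for over 1.5-fold), with Benjamini-Hochberg adjustment over all genes tested. CPM used TMM factors over all 12 libraries. They were divided by exon length where levels of different genes are compared, except in the ligand ratios, which are ratios of counts. No library was a copy of another, as chi-square statistics between libraries of a group were 4.33 to 7.87 for each degree of freedom. The script was tested on simulated data.

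The members and lists were chosen with earlier results of these data known. Named genes were all 10 members, HRAS and DOT1L, and the 5 genes with a named symbol most like IL1A. From each list up to 4 genes with the smallest p in a comparison were also named, not all of which are reported. CASP1, CCL2, CXCL2, CXCL3, NLRP3, MAP3K3 and MAP3K7 in RAS against Control and the genes of the marker lists were added after their values were seen. Alternatives were DESeq2 size factors, library size alone, 2 other filters, DESeq2 1.42.0 with its Wald test, limma-voom with limma 3.58.1, a joint fit of the 4 groups, a block for the replicate number, a prior count of 2 in the ratios, an offset for GC content in 20 bins, and each library left out in turn. Floors cover counting error only. The SE comes from the edgeR fit and the SD from the 3 libraries of a group, so both include the spread between libraries.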

Additional observations from a re-analysis of the deposited data

How the results depend on the processing

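Of 32 member changes, 29 kept their direction and their side of the threshold in every alternative run, and the counts of members changed stayed within 1 of the reported ones. The exceptions were IL1RAP in RAS against Control, at 0.0111 with the GC offset (adjusted p = 0.95), IL1A in DOT1L OE against Control without DOT1L OE replicate 1 (1.62, adjusted p = 0.0753), and IRAK2 in DOT1L OE against Control, whose log2 change ran from 0.19 to 0.49 with 1 library left out. IL1A had no value in DOT1L OE against Control under the filter of a CPM of at least 1 in 3 libraries. The cause of the GC trend was not tested. Fitted changes of IL1B and IL1RN against Control depend on 15 and 7 Control counts, which is what depth limits here, along with IL33. Of 1440 list counts under alternatives, 63 moved by over 1.5 times, 13 of them with library size alone and 12 with the GC offset.

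The replicate numbers did not pair the libraries, since the deviations of same-numbered libraries from their group means correlated at -0.02 to 0.03. With the replicate block, 8435 genes were called in RAS against Control (8670 without it), 6871 in RAS/shDOT1L against RAS (7058), 8030 in DOT1L OE against Control (8180) and 7303 in RAS/shDOT1L against Control (7501), and the members called were 8, 8, 9 and 7 in that order, as without it.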
